A study of Mus musculus with 36 samples.

Results

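Livers of 3 Bmal1 knockout mice were compared with livers of 3 wild-type mice, all taken at ZT12, the hour of lights-off at which mice begin to feed. These are 6 of the 36 liver libraries of a series on a prenatal Bmal1 knockout, in which 3 mice per genotype were killed at each of 6 Zeitgeber times (ZT, hours after lights on). All genes of the count table that passed a minimum on reads are described, 13201 of 21654; the other 8453 were not tested. All mice were C57BL/6, with lights on for 12 h of each day and food always at hand; food intake before each liver was taken was not controlled. The labels name the genotype Bmal1 KO, and the growth protocol calls the line cKO; the deleted exons, and any promoter that drives a Cre, are not given in the sources used here. Knockout mouse 1 was a female of 8 weeks and 13.7 g, knockout mouse 2 a female of 13.9 weeks and 18.1 g, and knockout mouse 3 a male of 13.9 weeks and 18.4 g. Wild-type mouse 1 was a male of 10.9 weeks and 29.2 g, wild-type mouse 2 a female of 13.9 weeks and 22.4 g, and wild-type mouse 3 a female of 10.9 weeks and 19.8 g. Each knockout mouse weighed less than each wild-type mouse, so genotype and body weight cannot be told apart at this time. Of these 6 mice, only knockout mouse 2 and wild-type mouse 2 shared a cage. Mice of the other times were 6.4 to 13.9 weeks old and weighed 15.7 to 28.4 g. By label each group held both sexes, in a split that was the same in both genotypes at each time but differed between times.

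BMAL1, encoded by Arntl, pairs with CLOCK or its relative NPAS2 and activates genes that carry E-box sequences, among them those of its own inhibitors, the period and cryptochrome proteins. It also drives Nr1d1 and Nr1d2, whose REV-ERB proteins repress genes with ROR response elements, including Arntl itself, and the PAR bZIP factors Dbp, Tef and Hlf, which act through D-boxes and are opposed by NFIL3. In the liver this circuit times lipid synthesis, glycogen storage, bile acid production and detoxification around the daily feeding period.

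Total counts were 12657858 to 12757144 reads per library at ZT12 and 12657858 to 12839653 over all 36. On the leading principal component of the 36 libraries (32.8% of the variance), scores ran from 14.2 to 102.5 in the 12 taken at ZT16 or ZT20 and from -37.2 to -12.5 in the remaining 24, so the late times stand apart in both genotypes. The ZT12 comparison uses those 12 libraries for the spread between mice, for the sex term and, through the minimum on reads, for the choice of genes tested. Reads of Xist and of the Y-linked gene Ddx3y matched the sex label of each of the 6 ZT12 mice, while wild-type replicate 3 of ZT16, labelled female, had 4 Xist reads and 1874 Ddx3y reads. Within ZT12, the first component held 45.9% of the variance, with the knockout mice at -32.1, -32.0 and -51.0 and the wild-type mice at 9.27, 48.7 and 57.1. The edge of the read minimum fell between a gene with 0.784673 CPM (reads scaled to a common library total) in its third-ranked library, which was tested, and one with 0.784644 CPM, which was not.

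At ZT12, 1574 genes (11.9% of those tested) passed the edgeR quasi-likelihood test at an adjusted p under 0.05. In the knockout 796 were higher (6.03%) and 778 lower (5.89%), of which 402 (3.05%) and 505 (3.83%) differed at least 2-fold. All 3 knockout values lay above all 3 wild-type values for 1995 genes (15.1%) and below them for 1737 genes (13.2%). The median log2 difference over all tested genes was 0.0149. Without wild-type mouse 2 or wild-type mouse 3, 529 and 476 genes were called higher. Without knockout mouse 2, knockout mouse 3, wild-type mouse 2 or wild-type mouse 3, 483, 508, 517 and 456 genes were called lower. With body weight as a further covariate, 679 were called higher and 764 lower. Without the ZT16 and ZT20 libraries, 1480 were called higher and 1407 lower.

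Most core clock genes differed between the genotypes. Of the 21 genes of that list, all tested, 6 rose in the knockout, 10 fell and 5 did not pass (76.2% called, against 11.9% over all tested genes). Their median log2 difference was -1.01. The genotypes did not overlap for 19 of the 21 genes, 20 of which are in the plot of core clock levels. The genes of the 3 activators and of Cry1 were higher, and those of 2 of the 3 period proteins, both REV-ERBs and CHRONO were lower. On mm9, the build of the count table, Arntl spans chr7:120350979-120457636, Npas2 chr1:39250576-39420079, Gm129 chr3:95682426-95686174 and Dbp chr7:52960458-52965525.

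**Figure D1:**
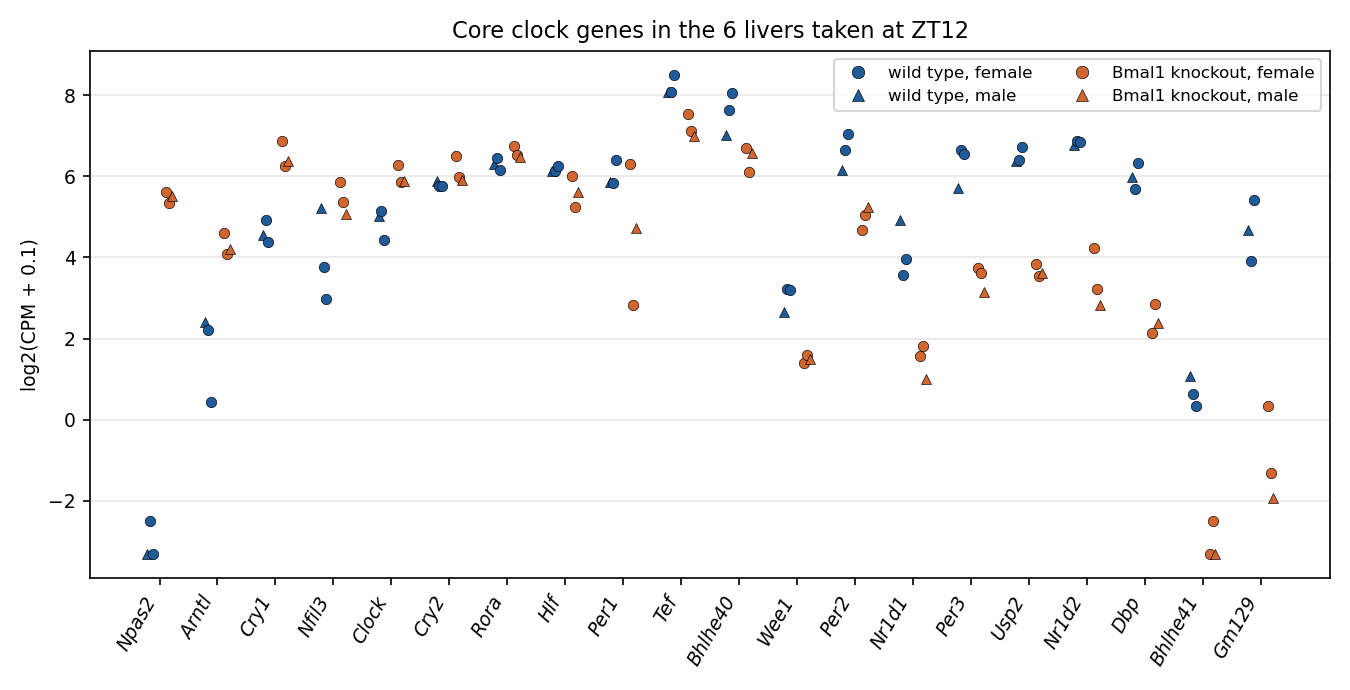
Levels of 20 core clock genes in the 6 ZT12 livers, as log2(CPM + 0.1) with 1 point per mouse, ordered by the fitted difference from the most positive to the most negative. Npas2 lies near the bottom of the axis in all 3 wild-type mice and between 40.2 and 48.5 CPM in the knockout mice, and Gm129 and Bhlhe41 show the reverse order.

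Among the activators, Arntl transcripts were present in the knockout, at 24.01, 16.7 and 18.3 CPM, against 5.23, 4.56 and 1.24 CPM in wild type. The groups did not overlap, and the knockout was higher by 2.45 ± 0.28 log2 units (SE, adjusted p = 6.17e-07). Over the 6 times the knockout means stayed between 16.7 and 19.7 CPM, while the wild-type means ran from 0.997 CPM at ZT8 to 38.9 CPM at ZT20, so ZT12 falls close to the wild-type low point. These counts cover the whole gene and not a stated deleted part, so the Arntl level checks neither the deletion nor the labels.

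Npas2, which can take the place of CLOCK beside BMAL1, had the largest positive difference among called genes with a mean of at least 1 log2 CPM. Its level was 48.5, 40.2 and 45.6 CPM in the knockout mice and 0, 0.0760 and 0 CPM in the wild-type mice. All wild-type mice together gave 1 read of Npas2 against 1733 in the knockout mice, a ratio of 1725 with an exact 95% counting interval of 309 to 68167. The fitted difference of 10.31 ± 0.56 log2 units (adjusted p = 6.82e-13) depends on the prior count for so low a group. Clock itself was 77.3, 58.1 and 59.0 CPM in the knockout and 32.6, 35.6 and 21.6 CPM in wild type, higher by 1.12 ± 0.31 log2 units (adjusted p = 0.0163).

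Of the inhibitors, Gm129, which encodes the repressor CHRONO (also named Ciart), fell furthest, from 25.6, 14.9 and 42.6 CPM in wild type to 1.15, 0.302 and 0.160 CPM in the knockout. That is a difference of -5.66 ± 0.69 log2 units (adjusted p = 1.58e-06), and the groups did not overlap. Bhlhe41, which encodes the E-box repressor DEC2, gave 1 read in the knockout mice and 59 in the wild-type mice, a ratio of 59.3 with an exact 95% counting interval of 10.2 to 2381. Per3 was 13.2, 12.1 and 8.80 CPM in the knockout and 52.7, 101 and 93.0 CPM in wild type, lower by 2.84 log2 units (-2.84 ± 0.32, adjusted p = 3.49e-07). Per2 fell from 101 ± 30.5 CPM to 32.2 ± 6.16 CPM (SD, n = 3; adjusted p = 0.00778). Per1 showed no such separation: it was 78.7, 7.01 and 26.5 CPM in the knockout and 58.4, 56.6 and 84.1 CPM in wild type, and knockout mouse 1 alone lay inside the wild-type range (adjusted p = 0.453).

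Of the cryptochromes, 1 of 2 was called. Cry1 was 117, 76.1 and 83.0 CPM in the knockout and 23.3, 30.1 and 20.8 CPM in wild type, higher by 1.90 ± 0.20 log2 units (adjusted p = 1.70e-07). Cry2 was 71.4 ± 16.6 CPM in the knockout and 55.8 ± 3.11 CPM in wild type and did not pass (SD, n = 3; adjusted p = 0.517). Bhlhe40, which encodes DEC1, was 89.0 ± 18.4 CPM in the knockout and 198 ± 68.1 CPM in wild type, just outside the threshold (SD, n = 3; adjusted p = 0.0516); DESeq2 called it lower (adjusted p = 0.0242).

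Both REV-ERB receptors fell. Nr1d1, encoding REV-ERBalpha, was 2.85, 3.39 and 1.92 CPM in the knockout and 30.3, 11.8 and 15.5 CPM in wild type (-2.82 ± 0.54 log2 units, adjusted p = 0.000657). Nr1d2, encoding REV-ERBbeta, was 18.5, 9.20 and 7.04 CPM against a narrow wild-type range of 109 to 116 CPM (-3.31 ± 0.32 log2 units, adjusted p = 2.39e-08). Rora was 95.9 ± 9.40 CPM in the knockout and 79.5 ± 8.37 CPM in wild type and did not pass (SD, n = 3; adjusted p = 0.517).

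Of the D-box factors, Dbp was 4.31, 7.09 and 5.12 CPM in the knockout and 63.2, 51.1 and 80.7 CPM in wild type (-3.56 ± 0.30 log2 units, adjusted p = 3.07e-09). Tef fell by a smaller amount, from 302 ± 52.95 to 150 ± 30.3 CPM (SD, n = 3; adjusted p = 0.000277). Hlf was 50.4 ± 13.2 CPM in the knockout and 72.1 ± 3.86 CPM in wild type and did not pass (SD, n = 3; adjusted p = 0.0925). Nfil3, their antagonist, was 58.0, 41.3 and 33.4 CPM in the knockout and 37.3, 13.5 and 7.82 CPM in wild type, called higher at 1.27 ± 0.32 log2 units (adjusted p = 0.00762) although the wild-type male lay inside the knockout range. The last members that fell were Usp2, a deubiquitinase that acts on clock proteins, which went from 91.0 ± 12.1 to 12.6 ± 1.28 CPM, and Wee1, a cell cycle kinase with E-boxes, from 8.21 ± 1.72 to 2.73 ± 0.20 CPM (SD, n = 3; adjusted p = 7.17e-06 and 0.0168).

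Several of the smaller clock calls ended when 1 mouse was left out, which also makes its group smaller. The call of Clock ended without knockout mouse 1 or wild-type mouse 3 (adjusted p = 0.0822 to 0.109), and that of Per2 without wild-type mouse 3 (adjusted p = 0.0576). The call of Nfil3 ended without knockout mouse 1, wild-type mouse 2 or wild-type mouse 3 (adjusted p = 0.061 to 0.0747). That of Wee1 ended without knockout mouse 1, knockout mouse 2, wild-type mouse 2 or wild-type mouse 3 (adjusted p = 0.0547 to 0.0652). The other 12 core clock calls held with each of the 6 mice left out in turn.

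Promoter sequences of clock genes are shown because the E-box, the D-box and the ROR response element are the sequences through which this circuit acts. They are RefSeq windows on GRCm38.p6, from 250 bases before to 50 after the annotated start, printed 5′ to 3′ on the strand of the gene, with exact matches in capitals. The motifs searched, on both strands, were CACGTG for the E-box, TTANGTAA for the D-box and NTAGGTCA for the ROR response element (RORE). Npas2, Gm129 and Bhlhe41 are shown as the clock genes with the largest differences, and Per3, Nfil3 and the second annotated promoter of Arntl as examples with a match, chosen after the matches were seen. Npas2 (chr1:39194022-39194321, plus strand) had no match in this window. Gm129 (chr3:95882179-95882478, minus strand) had 3 E-boxes and Bhlhe41 (chr6:145865371-145865670, minus strand) had 1. Per3 (chr4:151044616-151044915, minus strand) had 2 D-boxes. Nfil3 (chr13:52980990-52981289, minus strand) and the Arntl window (chr7:113207261-113207560, plus strand) each had 1 RORE match, that of Nfil3 on the opposite strand.
Npas2: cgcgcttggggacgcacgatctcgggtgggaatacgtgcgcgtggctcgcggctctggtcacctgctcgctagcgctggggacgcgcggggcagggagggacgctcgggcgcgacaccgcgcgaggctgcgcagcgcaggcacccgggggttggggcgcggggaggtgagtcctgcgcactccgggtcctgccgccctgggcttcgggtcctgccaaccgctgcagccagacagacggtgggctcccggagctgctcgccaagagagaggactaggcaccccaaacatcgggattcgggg
Gm129: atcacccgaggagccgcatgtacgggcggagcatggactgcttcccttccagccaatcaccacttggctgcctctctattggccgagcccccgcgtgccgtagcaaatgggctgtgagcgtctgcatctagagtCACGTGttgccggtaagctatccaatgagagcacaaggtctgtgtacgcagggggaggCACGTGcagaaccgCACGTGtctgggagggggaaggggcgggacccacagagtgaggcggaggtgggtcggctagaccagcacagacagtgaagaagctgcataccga
Bhlhe41: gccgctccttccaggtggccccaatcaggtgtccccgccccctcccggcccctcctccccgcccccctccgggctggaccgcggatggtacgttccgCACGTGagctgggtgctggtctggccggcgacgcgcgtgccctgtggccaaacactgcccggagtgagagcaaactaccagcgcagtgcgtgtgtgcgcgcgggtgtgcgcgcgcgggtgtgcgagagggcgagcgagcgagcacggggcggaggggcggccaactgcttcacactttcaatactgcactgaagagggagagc
Per3: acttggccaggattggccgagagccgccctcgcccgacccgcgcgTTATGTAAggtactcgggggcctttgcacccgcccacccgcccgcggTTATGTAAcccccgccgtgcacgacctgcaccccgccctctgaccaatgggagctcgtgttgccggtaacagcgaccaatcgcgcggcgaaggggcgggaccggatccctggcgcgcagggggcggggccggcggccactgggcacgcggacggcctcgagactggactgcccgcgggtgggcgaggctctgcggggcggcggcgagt
Nfil3: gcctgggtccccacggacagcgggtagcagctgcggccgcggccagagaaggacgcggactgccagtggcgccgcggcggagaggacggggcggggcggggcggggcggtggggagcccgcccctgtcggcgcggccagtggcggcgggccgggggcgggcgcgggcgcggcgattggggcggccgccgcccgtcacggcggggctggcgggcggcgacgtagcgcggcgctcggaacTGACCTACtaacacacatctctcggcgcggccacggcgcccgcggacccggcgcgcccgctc
Arntl: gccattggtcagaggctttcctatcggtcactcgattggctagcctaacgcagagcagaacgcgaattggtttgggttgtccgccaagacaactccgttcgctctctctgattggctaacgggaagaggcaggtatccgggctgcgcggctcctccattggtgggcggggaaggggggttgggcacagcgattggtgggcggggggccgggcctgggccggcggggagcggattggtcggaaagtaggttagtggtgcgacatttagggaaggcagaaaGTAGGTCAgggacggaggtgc

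Of the 10211 tested genes with a promoter in the RefSeq table, 11.8% held an E-box, 1.92% a D-box and 2.5% a RORE match. A gene was counted if any of its windows held a match. Among the 615 genes called higher that had a window, 10.9% held an E-box, 1.95% a D-box and 4.39% a RORE match. Among the 598 called lower, 13% held an E-box, 4.35% a D-box and 3.18% a RORE match. Counted per window, 7.15%, 2.32% and 2.59% of all 32851 promoter windows in the table held them. Those per-window values cannot be set directly against the shares of genes. These shares are descriptions with no test, and a match is not evidence of binding.

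Beyond the core loop, 15 of the 22 genes listed as clock outputs fell in the knockout and 2 rose (77.3% called, against 11.9% over all tested genes). Their median log2 difference was -1.83. Nampt, the rate-limiting enzyme of NAD salvage, was 57.3, 61.2 and 31.8 CPM in the knockout and 251, 292 and 228 CPM in wild type (-2.39 ± 0.26 log2 units, adjusted p = 2.80e-07). The higher pair were Avpr1a, a vasopressin receptor, at 71.8 ± 11.6 against 16.5 ± 6.38 CPM, and Leo1, a transcription elongation factor, at 23.9 ± 4.59 against 13.2 ± 3.0 CPM (SD, n = 3). Cyp2a5, a cytochrome P450 of coumarin and nicotine metabolism, fell from 2671 ± 1064 to 497 ± 109 CPM (SD, n = 3; adjusted p = 1.87e-05). This list shares 12 genes with the core clock list.

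Of the 15 genes listed as repressed by REV-ERB, 10 rose, 1 fell and 4 did not pass (73.3% called, against 11.9% over all tested genes). Their median log2 difference was 1.27, and 6 of the 15 are core clock genes already described. Lpl, the lipase that frees fatty acids from circulating triglyceride and is usually low in adult liver, was 671, 799 and 633 CPM in the knockout and 16.4, 8.97 and 14.3 CPM in wild type (5.80 ± 0.55 log2 units, adjusted p = 2.33e-08). Insig2, which holds SREBP precursors in the endoplasmic reticulum, was 573, 354 and 757 CPM against 87.1, 112 and 55.1 CPM (2.72 ± 0.25 log2 units, adjusted p = 1.20e-08). Cdkn1a, whose product p21 inhibits cyclin-dependent kinases, was 40.3, 29.6 and 53.7 CPM against 1.66, 4.56 and 0.877 CPM (4.15 ± 0.72 log2 units, adjusted p = 0.000235). None of these overlapped between the groups. The member that fell was Gys2, liver glycogen synthase, described with the glycogen genes.

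**Figure D2:**
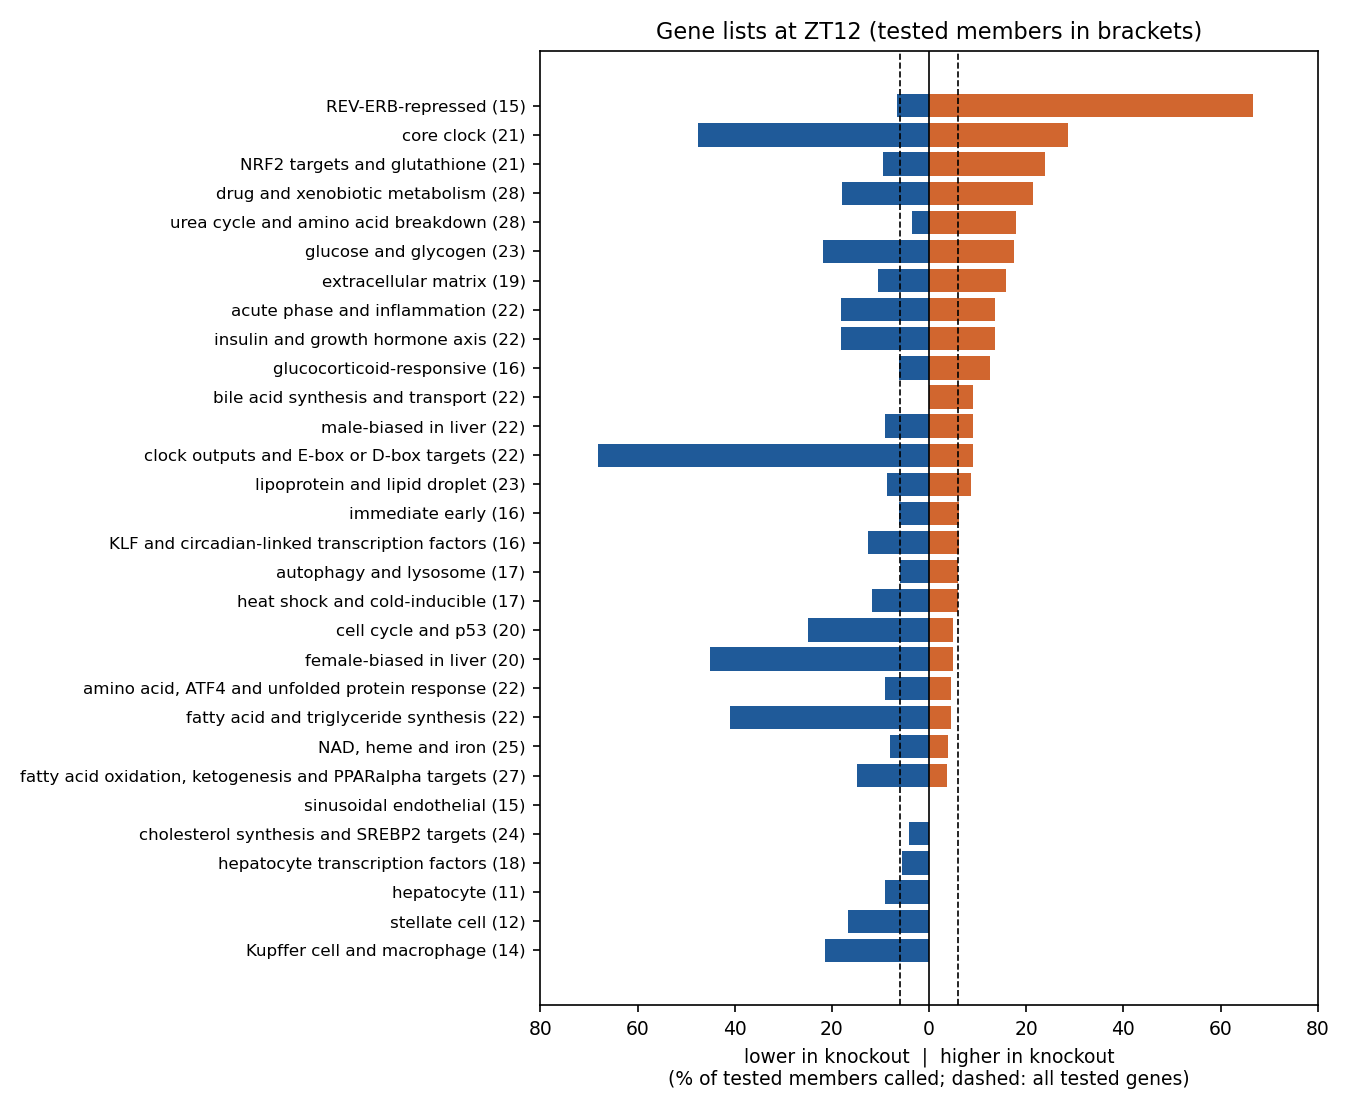
Share of tested members called higher (right) and lower (left) in the knockout at ZT12, for each gene list with at least 10 tested members. Dashed lines mark the shares over all tested genes, 6.03% and 5.89%; the clock outputs extend furthest to the left (15 of 22) and the genes repressed by REV-ERB furthest to the right (10 of 15).

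After Npas2, the highest fitted differences under the same limit on the mean were those of Sult1e1, the estrogen sulfotransferase (77.0, 26.6 and 139 CPM against 0.0830, 0.380 and 0.585 CPM; 7.71 ± 1.20 log2 units, adjusted p = 5.40e-05), and Tox2, an HMG-box factor (17.3, 23.4 and 40.6 CPM against 0.166, 0.304 and 0.0731 CPM; 7.11 ± 0.66 log2 units, adjusted p = 1.77e-08). Loxl4, a lysyl oxidase that crosslinks collagen, was 67.4, 82.8 and 80.7 CPM against 0.415, 0.760 and 1.10 CPM (6.66 ± 0.56 log2 units, adjusted p = 2.98e-09). Npnt, the matrix protein nephronectin, rose from 0.240 ± 0.226 to 15.1 ± 5.51 CPM (SD, n = 3; adjusted p = 1.10e-09). Each of these was near the limit of detection in wild type and plainly expressed in each knockout mouse.

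The other genes among the 15 highest rose by 3.80 to 4.64 log2 units, apart from Lpl. They were Grk5, a kinase of G protein-coupled receptors, Gas7, Cdkn1a, Slc34a2, a phosphate transporter, Cyp2c55, Ndrg1, Ntrk2, the BDNF receptor TrkB, Dtx4 and Rnf144a. In the extracellular matrix list, 3 of 19 genes were higher and 2 lower, a called share of 26.3% against 11.9% over all tested genes. The 15 highest calls held with each mouse left out in turn, and in each of these genes all 3 knockout mice lay above all 3 wild-type mice.

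On the lower side, genes with the same order in both sexes included Mme, the peptidase neprilysin, at 0.462, 1.13 and 1.28 CPM in the knockout and 29.8, 65.6 and 84.9 CPM in wild type (-5.87 ± 0.52 log2 units, adjusted p = 7.98e-09). Dio1, the deiodinase that activates thyroid hormone, was 6.62, 21.1 and 17.8 CPM against 216, 297 and 204 CPM (-3.99 ± 0.58 log2 units, adjusted p = 1.90e-05). Nrg4, a secreted ligand of the EGF family, fell from 23.4 ± 10.9 to 1.56 ± 0.88 CPM (SD, n = 3; adjusted p = 9.77e-07). Col27a1, a fibrillar collagen, was 5.003, 3.09 and 3.84 CPM in the knockout and 195, 74.0 and 20.0 CPM in wild type, a wide wild-type range that stayed above the knockout (-4.24 ± 0.83 log2 units, adjusted p = 0.000842). Tmc7 and Adrb3, a beta-adrenergic receptor, were also among the 15 lowest (-4.52 and -3.82 log2 units).

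Of the 15 lowest genes, 6 stand in the lists of genes with known sex differences in mouse liver, and their levels differed with the sex of the mouse. Growth hormone pulses set this dimorphism, and its female and male genes include many sulfotransferases, cytochrome P450s and urinary proteins. Of 20 tested genes of the female-biased list, 9 fell, 1 rose and 10 did not pass, with a median log2 difference of -2.57. Of 22 of the male-biased list, 2 fell, 2 rose and 18 did not pass, with a median of -0.61. Without the sex term in the edgeR fit, 1 female-biased gene was called lower and 0 higher, and 0 male-biased genes were called lower and 1 higher. At an unadjusted p under 0.05, 7 female-biased genes were then lower and 0 higher, and 0 male-biased genes lower and 2 higher; DESeq2 with the sex term called 8 female-biased genes lower and 1 higher, and 3 male-biased genes lower and 2 higher. With body weight as a further covariate, 7 female-biased genes were lower and 1 higher, and 0 male-biased genes lower and 3 higher. At an unadjusted p under 0.05, 1 male-biased gene was then lower and 7 higher. Without wild-type replicate 3 of ZT16, whose reads go against its sex label, 11 female-biased genes were lower and 1 higher. In the male-biased list 3 were then lower and 3 higher. Each group held only 1 male, and a difference of the genotype effect between sexes was not tested.

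Among the female-biased genes, Sult2a1, a sulfotransferase of steroids and bile acids, was 40.3 and 65.3 CPM in the wild-type females and 1.31 and 0.452 CPM in the knockout females, and 0.332 and 0 CPM in the wild-type and knockout males (-5.98 ± 0.67 log2 units, adjusted p = 4.18e-07). Its neighbour in sequence Sult2a2 had the same pattern, at 97.8 and 99.9 CPM in wild-type females and 2.16 and 1.06 CPM in knockout females (adjusted p = 5.52e-06). Cyp2a4, a steroid hydroxylase, was 1597 and 1295 CPM in wild-type females, 3.85 and 9.502 CPM in knockout females, and 0.830 and 0.400 CPM in the males. For these 3 genes the knockout females lay far below the wild-type females and above both males. Hao2, a hydroxyacid oxidase, went the other way, at 52.0 and 112 CPM in knockout females and 9.96 and 9.21 CPM in wild-type females (2.96 ± 0.55 log2 units, adjusted p = 0.000527).

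Among the male-biased genes, Serpina1e, an alpha-1-antitrypsin form, was 8654 CPM in the wild-type male and 357 CPM in the knockout male, and 483 and 98.9 CPM against 4.31 and 5.43 CPM in females (-5.38 ± 1.11 log2 units, adjusted p = 0.00147). Selenbp2, a selenium-binding protein, was 2788 against 138 CPM in males and 136 and 8.92 against 1.69 and 4.15 CPM in females. Mup15, a major urinary protein outside both lists, had the lowest fitted difference among called genes with a mean of at least 1 log2 CPM, predicted genes left out, at 551 against 1.44 CPM in males and 61.4 and 77.7 against 0.308 and 0.528 CPM in females (-8.12 ± 2.31 log2 units, adjusted p = 0.0202). Cyp2c29, a cytochrome P450, rose instead in both sexes, from 1484 ± 318 to 5363 ± 1249 CPM (SD, n = 3; adjusted p = 1.80e-05). The knockout male lay below the wild-type male for Serpina1e, Selenbp2 and Mup15 and above it for Cyp2c29.

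**Figure D3:**
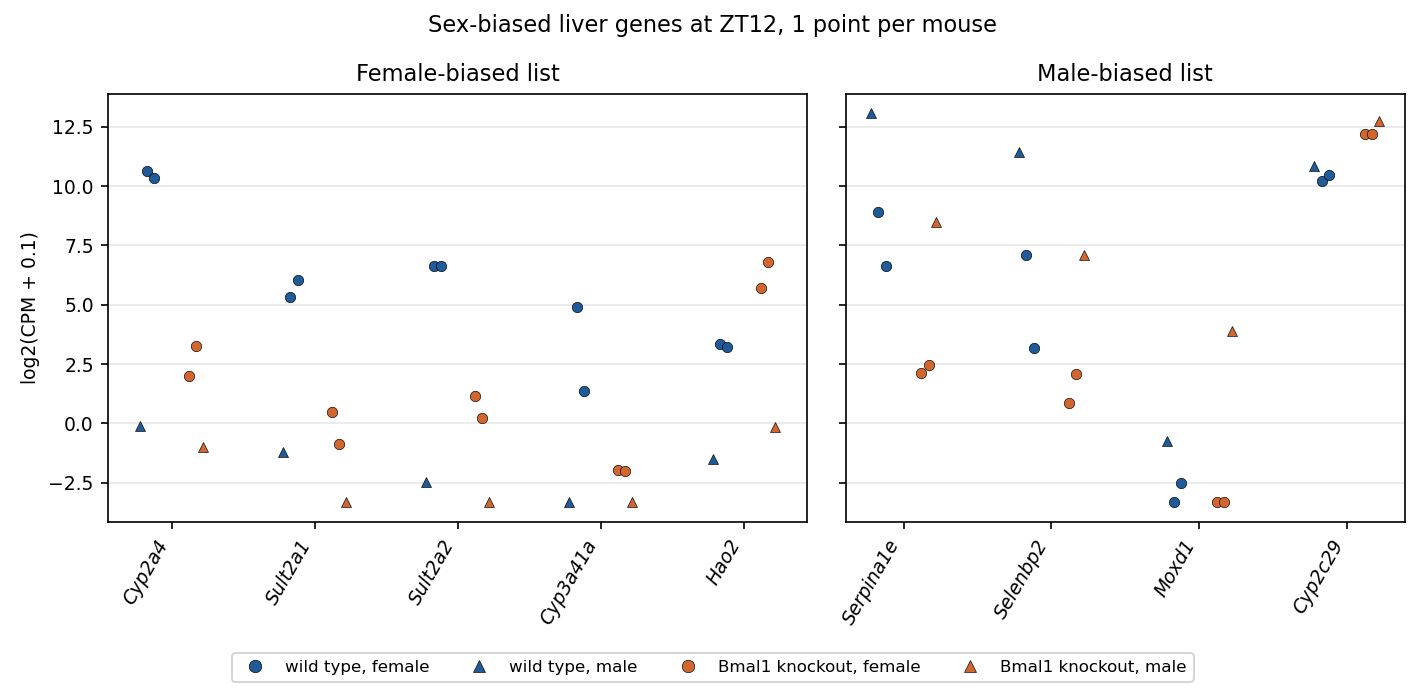
Levels of sex-biased liver genes at ZT12 as log2(CPM + 0.1), 1 point per mouse, with circles for females and triangles for males. In the left panel the wild-type females stand apart from all other mice for Cyp2a4, Sult2a1, Sult2a2 and Cyp3a41a; in the right panel the wild-type male is the highest for Serpina1e and Selenbp2.

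With 4 females and 2 males these calls depend on few mice. Without knockout mouse 2, 3 female-biased genes were called lower; the counts were 5 without knockout mouse 1 and 4 without wild-type mouse 2. In the male-biased list 1 gene was called higher without any 1 mouse other than knockout mouse 1, and 1 was called lower without any 1 mouse other than wild-type mouse 3. The call of Cyp3a41a ended without wild-type mouse 2 (adjusted p = 0.160) and by DESeq2 (adjusted p = 0.0787). The calls of Mup15 (adjusted p = 0.0639 to 0.104), Cyp2a4 (0.0583 to 0.169) and Selenbp2 (0.0614 to 0.119) ended without any 1 of 3, 4 and 5 of the mice. Sult2a1, Sult2a2, Hao2 and Serpina1e held with each mouse left out. Of these, the calls of Sult2a2, Hao2 and Serpina1e ended without the sex term. That of Serpina1e also ended with body weight as a further covariate. Cyp2a4 and Cyp2a5, Sult2a1 and Sult2a2, Mup15, Serpina1e, the Cyp2c and Cyp3a genes, the Gstm genes and Saa1 belong to families of near-identical copies, and how reads shared between copies were counted is not given in the sources used here, so their levels are uncertain.

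Many genes of lipid synthesis were lower in the knockout at this hour. Of 22 tested genes of fatty acid and triglyceride synthesis, 9 fell and 1 rose (45.5% called, against 11.9% over all tested genes). Their median log2 difference was -1.04. The higher gene was Agpat2, an acyltransferase named here after its values were seen, whose call ended without knockout mouse 2, knockout mouse 3 or wild-type mouse 3 (adjusted p = 0.0168, and 0.0596 to 0.139). Elovl6, which elongates palmitate, was 27.6, 53.02 and 39.5 CPM in the knockout and 60.2, 372 and 227 CPM in wild type (-2.34 ± 0.56 log2 units, adjusted p = 0.00546). Thrsp, a lipogenic regulator also called Spot14, was 13.3, 68.0 and 239 CPM against 745, 1690 and 1834 CPM (-3.83 ± 1.04 log2 units, adjusted p = 0.0147). Lpin1, the phosphatidate phosphatase lipin 1, was 43.3, 33.9 and 48.2 CPM against 386, 356 and 352 CPM (-3.12 ± 0.81 log2 units, adjusted p = 0.0112). Dgat2, which completes triglyceride synthesis, fell from 730 ± 173 to 474 ± 74.3 CPM (SD, n = 3; adjusted p = 0.00761).

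The size of this difference varied between wild-type mice. Pnpla3, a lipase induced by feeding, was 0.0830 CPM in the wild-type male and 19.2 and 28.5 CPM in the wild-type females, against 1.001, 0.830 and 0.160 CPM in the knockout (-4.25 ± 1.08 log2 units, adjusted p = 0.00913). Fasn, fatty acid synthase, named here after its values were seen, was 112, 332 and 196 CPM in the knockout and 224, 960 and 2539 CPM in wild type, with the wild-type male inside the knockout range (adjusted p = 0.0319). Without knockout mouse 2, 1 gene of the list was called lower, Elovl6; the counts were 5 without knockout mouse 1, 6 without wild-type mouse 2 and 4 without wild-type mouse 3. The calls of Pnpla3 and Lpin1 ended without knockout mouse 2 (adjusted p = 0.0562 and 0.0603), that of Thrsp without knockout mouse 1 or 2 (0.0706 to 0.0774), that of Dgat2 without knockout mouse 2 or wild-type mouse 3 (0.0738 to 0.109), and that of Fasn without any 1 of the 3 knockout mice or wild-type mouse 3 (0.0565 to 0.303). The part of food intake in these differences was not tested.

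In cholesterol synthesis 1 of 24 tested genes fell (3 without wild-type mouse 1). At an unadjusted p under 0.05 by edgeR, 12 of the 24 were lower and 0 higher. The list's median log2 difference was -0.85, with 23 members that did not pass. In fatty acid oxidation, 4 of 27 tested genes fell and 1 rose, with a median of -0.10. The called share was 4.17% in the cholesterol list and 18.5% in the oxidation list, against 11.9% over all tested genes. Pdk4, the kinase that shuts off pyruvate dehydrogenase in fasting, was 33.2, 37.0 and 27.9 CPM in the knockout and 2.66, 5.93 and 4.39 CPM in wild type (2.92 ± 0.52 log2 units, adjusted p = 0.000313). The count of lower genes was 2 without knockout mouse 3 or wild-type mouse 2, and that of higher genes 2 without wild-type mouse 1.

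Glycogen and glucose genes changed in both directions, 5 of 23 lower and 4 higher (39.1% called, against 11.9% over all tested genes). Gys2 was 71.5, 69.1 and 79.9 CPM in the knockout and 349, 284 and 315 CPM in wild type (-2.10 ± 0.20 log2 units, adjusted p = 2.86e-08), with small spread in both genotypes. Gbe1, the glycogen branching enzyme, fell from 137 ± 15.4 to 80.1 ± 10.0 CPM (SD, n = 3; adjusted p = 0.000462). Ppp1r3c, a subunit that targets a phosphatase to glycogen, rose from 41.7 ± 13.5 to 173 ± 29.4 CPM (SD, n = 3; adjusted p = 0.000515). Gckr, the protein that holds glucokinase in the nucleus, was 295, 284 and 281 CPM in the knockout and 140, 116 and 162 CPM in wild type (1.04 ± 0.14 log2 units, adjusted p = 1.00e-05). Pfkfb3, which makes the glycolytic activator fructose 2,6-bisphosphate, was 3.46, 2.49 and 6.00 CPM against 60.3, 19.8 and 22.1 CPM (-3.07 ± 0.59 log2 units, adjusted p = 0.000671). The 5 lower calls held with each mouse left out; of the 4 higher ones, 2 were left without knockout mouse 2 or wild-type mouse 3.

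In the insulin and growth hormone axis, 3 of 22 genes rose and 4 fell (31.8% called, against 11.9% over all tested genes). Stat5b, the transcription factor of growth hormone signalling, was 127, 84.2 and 87.8 CPM in the knockout and 45.0, 59.2 and 54.5 CPM in wild type (0.91 ± 0.15 log2 units, adjusted p = 8.08e-05). Foxo3, a transcription factor that insulin signalling restrains, was 31.7, 29.3 and 40.9 CPM against 80.2, 77.8 and 68.7 CPM (-1.16 ± 0.17 log2 units, adjusted p = 1.90e-05). Pik3r1, the regulatory subunit of PI3-kinase, fell from 115 ± 13.1 to 51.7 ± 10.2 CPM (SD, n = 3; adjusted p = 0.00241). Irs2, an insulin receptor substrate that rises in fasting, was 56.6, 7.92 and 9.60 CPM in the knockout and 3.73, 2.58 and 2.63 CPM in wild type, with knockout mouse 1, the lightest of the 6, far above the others (2.98 ± 0.77 log2 units, adjusted p = 0.0102). Its call ended without knockout mouse 1, wild-type mouse 2 or wild-type mouse 3 (adjusted p = 0.0558 to 0.196). Over the list, 1 gene was called higher without knockout mouse 1 or without wild-type mouse 2, and 2 were called lower without knockout mouse 3 or without wild-type mouse 2.

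Of 22 bile acid genes 2 rose and 0 fell, a called share of 9.09% against 11.9% over all tested genes. Both held with each mouse left out, and 3 were called higher without wild-type mouse 2. Hsd3b7, an enzyme of bile acid synthesis, was 625, 869 and 1044 CPM in the knockout and 352, 297 and 198 CPM in wild type (1.58 ± 0.16 log2 units, adjusted p = 6.61e-08). Abcb11, the bile salt export pump, was 974.8, 797 and 1052 CPM against 405, 485 and 514 CPM (1.02 ± 0.16 log2 units, adjusted p = 6.99e-05). The median log2 difference of the list was 0.11.

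In drug and xenobiotic metabolism 6 of 28 genes rose and 5 fell (39.3% called, against 11.9% over all tested genes). Besides Sult1e1, Cyp2c29 and Cyp2a5, Cyp2c55 rose from 7.56 ± 1.94 to 119 ± 76.1 CPM (SD, n = 3; adjusted p = 0.00127). Por, the reductase that supplies electrons to microsomal cytochrome P450s, was 504, 354 and 174 CPM in the knockout and 738, 919 and 973 CPM in wild type (-1.44 ± 0.29 log2 units, adjusted p = 0.000981). The count of higher genes was 3 without wild-type mouse 2, and that of lower genes 3 without knockout mouse 1.

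Among 21 genes of glutathione metabolism and NRF2 targets, 5 rose and 2 fell (33.3% called, against 11.9% over all tested genes). The mu-class glutathione transferases led, with Gstm3 at 243, 377 and 550 CPM in the knockout and 37.3, 39.2 and 83.5 CPM in wild type (2.93 ± 0.54 log2 units, adjusted p = 0.00048) and Gstm2 at 297 ± 108 against 59.8 ± 28.8 CPM (SD, n = 3; adjusted p = 0.000896). Gstm6 was 228, 312 and 538 CPM against 90.5, 91.2 and 112 CPM (adjusted p = 0.00156). For all 3 genes the knockout male was the highest mouse and no values overlapped. The lower count fell to 0 by edgeR without knockout mouse 2, knockout mouse 3 or wild-type mouse 3, and to 1 without knockout mouse 1 or wild-type mouse 2.

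In amino acid breakdown and the urea cycle, 5 of 28 genes rose and 1 fell, with a median log2 difference of 0.31. The called share was 21.4%, against 11.9% over all tested genes. Cbs, which makes cystathionine from homocysteine, was 1082, 1170 and 949 CPM in the knockout and 297, 279 and 370 CPM in wild type (1.76 ± 0.21 log2 units, adjusted p = 7.16e-07). Bhmt, which remethylates homocysteine, was 3897, 4841 and 6375 CPM against 1091, 2348 and 1575 CPM (1.62 ± 0.43 log2 units, adjusted p = 0.0122). The call of Bhmt ended without knockout mouse 3, wild-type mouse 1 or wild-type mouse 3 (adjusted p = 0.057 to 0.0666). The gene that fell was Gpt2, an alanine aminotransferase, whose call ended without knockout mouse 2 or wild-type mouse 3 (adjusted p = 0.00826, and 0.0501 to 0.0561); 2 were called lower without knockout mouse 1. The count of higher genes was 2 without wild-type mouse 1 and 3 without knockout mouse 2, knockout mouse 3 or wild-type mouse 2.

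Among 22 acute phase genes 4 were lower and 3 higher (31.8% called, against 11.9% over all tested genes). At an unadjusted p under 0.05 by edgeR, 8 were lower and 3 higher, and with body weight as a further covariate 3 were called lower and 0 higher. Saa4, a constitutive serum amyloid A, was 47.6, 82.0 and 130 CPM in the knockout and 535, 341 and 241 CPM in wild type (-2.11 ± 0.33 log2 units, adjusted p = 5.32e-05). Saa1, the inducible form, was 1.77, 4.90 and 3.44 CPM against 26.9, 34.97 and 37.4 CPM, a call that ended without knockout mouse 1 or 3 (adjusted p = 0.0133, and 0.0628 to 0.0657). The higher genes, led by Itih3 at 1714 ± 188 against 970 ± 126 CPM (SD, n = 3; adjusted p = 0.019), passed in smaller steps. None of them was called by edgeR without knockout mouse 1 or without wild-type mouse 3, 1 was called without knockout mouse 3 or wild-type mouse 1, and 1 gene was called lower without knockout mouse 1 and 2 without knockout mouse 2.

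In the cell cycle list 5 of 20 genes fell and Cdkn1a rose. Ccnd1, cyclin D1, was 3.31, 17.6 and 8.56 CPM in the knockout and 11.9, 205 and 168 CPM in wild type, with the wild-type male inside the knockout range (-2.99 ± 0.69 log2 units, adjusted p = 0.00418); its call ended with the ZT12 libraries alone. Mki67, the proliferation marker Ki-67, was low throughout, at 0.130 ± 0.0472 against 1.46 ± 0.83 CPM (SD, n = 3; adjusted p = 0.00132). The lower count was 2 without knockout mouse 1 or wild-type mouse 2 and 3 without knockout mouse 2 or wild-type mouse 3. Of 17 heat shock and cold-inducible genes, 2 fell, 1 rose and 14 did not pass, with a median log2 difference of -0.23. The called share was 17.6%, against 11.9% over all tested genes. Hspb1, a small heat shock protein, fell from 14.1 ± 3.73 to 2.79 ± 0.42 CPM (SD, n = 3, adjusted p = 0.000203). Cirbp, the cold-inducible RNA-binding protein, rose from 22.05 ± 7.405 to 47.3 ± 9.45 CPM (SD, n = 3, adjusted p = 0.00158). Alas1, the rate-limiting enzyme of heme synthesis, was 202, 628 and 557 CPM in the knockout and 2218, 1654 and 1557 CPM in wild type (adjusted p = 0.0387). Its groups did not overlap, yet its call ended without any 1 of 5 mice (adjusted p = 0.0546 to 0.166), all but knockout mouse 3.

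Markers of the cell types of liver were read beside these results. Of 11 hepatocyte markers 1 was called (9.09%, against 11.9% over all tested genes). It was Fabp1, the liver fatty acid-binding protein, at 478, 1428 and 2047 CPM in the knockout and 5096, 4903 and 2454 CPM in wild type (adjusted p = 0.0115, and 0.053 to 0.0721 without knockout mouse 1 or wild-type mouse 2). The summed level of the hepatocyte list was 50610 to 58198 CPM in the knockout and 50753 to 63764 CPM in wild type. Of 14 Kupffer cell and macrophage markers 3 were lower (21.4%), Cd68, C1qc and Cd163, with summed levels of 103 to 253 CPM against 153 to 632 CPM. This count was 0 by edgeR without knockout mouse 1 or wild-type mouse 3, and 1 without knockout mouse 2 or wild-type mouse 2. It was 5 without knockout mouse 3 and 10 without wild-type mouse 1, and DESeq2 called 8. Without the sex term it was 0, and with body weight as a further covariate 6. At an unadjusted p under 0.05 by edgeR, 13 of the 14 were lower and 0 higher, with a list median of -0.98 log2 units. Of 12 stellate cell markers 2 were lower (16.7%), Cygb and Colec11, with sums of 119 to 374 against 255 to 624 CPM. Only 1 was lower without knockout mouse 2, knockout mouse 3, wild-type mouse 2 or wild-type mouse 3. At an unadjusted p under 0.05 by edgeR, 5 stellate cell markers were lower and 0 higher. No sinusoidal endothelial marker of 15 was called by edgeR or DESeq2, and 2 were lower at an unadjusted p under 0.05; edgeR called 1 lower without wild-type mouse 1 and 2 lower with body weight as a covariate. In whole liver, fewer cells of a type and less RNA per cell cannot be told apart, and the part of these levels in the acute phase and matrix results was not tested.

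The ZT12 difference was set against the same difference at the other times, measured in other mice. Body weights of the genotypes overlapped at each other time but not at ZT12 (knockout 13.7 to 18.4 g, wild type 19.8 to 29.2 g). A departure at ZT12 by time of day therefore cannot be told apart from one that goes with this gap in weight. Of the 1574 ZT12 calls, 721 were also called at ZT8 (45.8% of ZT12 calls and 63.8% of the 1130 at ZT8, which are 8.56% of genes tested), 720 of them in the same direction. At ZT16 the shared calls were 567 (36% and 49.9% of 1136), and at ZT0 196 (12.5% and 75.4% of 260). The shares of tested genes called at ZT0, ZT4, ZT16 and ZT20 were 1.97%, 3.56%, 8.61% and 3.38%. The difference at ZT12 departed from the mean of the other 5 times for 66 genes (0.500% of those tested), more positive for 45 (0.341%) and more negative for 21 (0.159%). Against ZT0 alone it departed for 178 genes (1.35%; more negative for 65, 0.492%), against ZT16 for 23 (0.174%; more negative for 5, 0.0379%) and against ZT8 for 1 (0.00758%), with 756 genes (5.73%) at an unadjusted p under 0.05 in the last comparison. Without the ZT16 and ZT20 libraries, which lie apart from the rest, 205 genes departed from the mean of ZT0, ZT4 and ZT8, and without wild-type mouse 3 of ZT12 the count against 5 times was 27. The count against ZT0 was 112 without knockout mouse 2 or wild-type mouse 3. The count against ZT16 was 12, 14 and 14 without knockout mouse 1, 2 and 3 and 11 without wild-type mouse 3, and that against ZT8 was 2 without knockout mouse 1 and 4 without wild-type mouse 3.

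**Figure D4:**
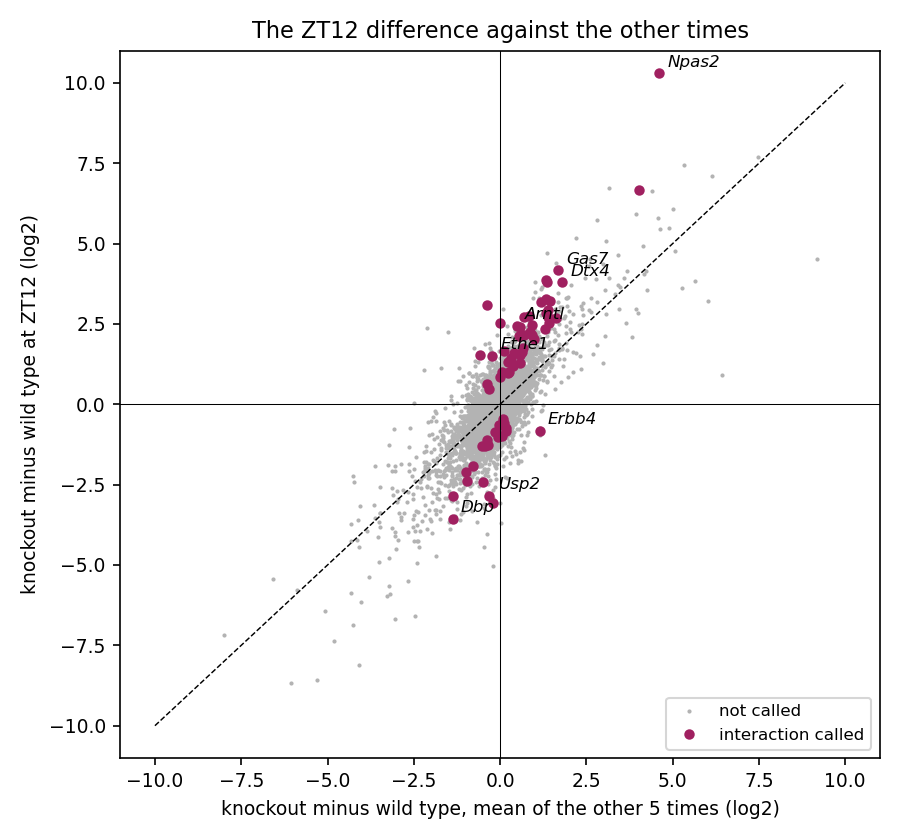
Fitted knockout minus wild-type difference at ZT12 (vertical axis, log2) against its mean over the other 5 times (horizontal axis, log2), 1 point per tested gene. The 66 genes called for a departure are coloured, and the dashed line marks equal differences; of the coloured genes Npas2 lies farthest above it, and Dbp and Usp2 lie below it.

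Of the genes with positive departures, Npas2 stood between 26.96 and 44.8 CPM at all times in the knockout, while wild-type livers averaged 17.3 CPM at ZT0 but only 0.0253 CPM at ZT12; its ZT12 difference exceeded the mean of the others by 5.69 ± 0.86 log2 units (adjusted p = 0.000671). Chka, choline kinase alpha, was 178 to 247 CPM in the knockout and in wild type averaged 169 CPM at ZT0, 16.9 CPM at ZT8 and 30.1 CPM at ZT12 (1.52 ± 0.24 log2 units, adjusted p = 0.000818). Hsd3b7 had wild-type means of 929 CPM at ZT0 and 282 CPM at ZT12, its lowest, with knockout means of 846 to 1076 CPM (1.17 ± 0.17 log2 units, adjusted p = 0.000671). Ethe1, a mitochondrial sulfur dioxygenase, was 85.0 ± 6.64 CPM in the knockout and 30.1 ± 8.69 CPM in wild type at ZT12, and 94.6 ± 23.2 against 145 ± 27.6 CPM at ZT0 (SD, n = 3). Cldn1, a tight junction protein, was 148 ± 23.2 against 34.4 ± 14.1 CPM at ZT12 and 113 ± 21.4 against 142 ± 29.8 CPM at ZT0 (SD, n = 3).

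Of the genes with negative departures, Dbp in wild type averaged 250 CPM at ZT8 and 65.0 CPM at ZT12, against 0.813 CPM at ZT0, while the knockout stayed between 3.59 and 7.70 CPM (-2.18 ± 0.32 log2 units against the other 5 times, adjusted p = 0.000649). Usp2 had wild-type means of 89.5 and 91.0 CPM at ZT8 and ZT12 and 3.59 to 17.95 CPM at the other times, against 4.98 to 16.2 CPM in the knockout (-2.53 ± 0.41 log2 units, adjusted p = 0.00134). Ppp1r3b, a glycogen-targeting phosphatase subunit, was the gene that departed from ZT8: its wild-type mean was 101 CPM at ZT8 and 568 CPM at ZT12, its knockout mean 578 and 395 CPM (-3.06 log2 units, adjusted p = 4.52e-05). At ZT12 alone its genotypes did not pass (-0.55 ± 0.25 log2 units, adjusted p = 0.162). The departures of the 12 genes with the smallest p held with each ZT12 mouse left out; without the ZT16 and ZT20 libraries that of Arntl no longer passed (1.15 log2 units, adjusted p = 0.0798). In libraries labelled female alone 9 of the 12 did not pass, in those labelled male alone all 12, and with a minimum log2 difference of 1 in the test 11, all but Npas2.

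**Figure D5:**
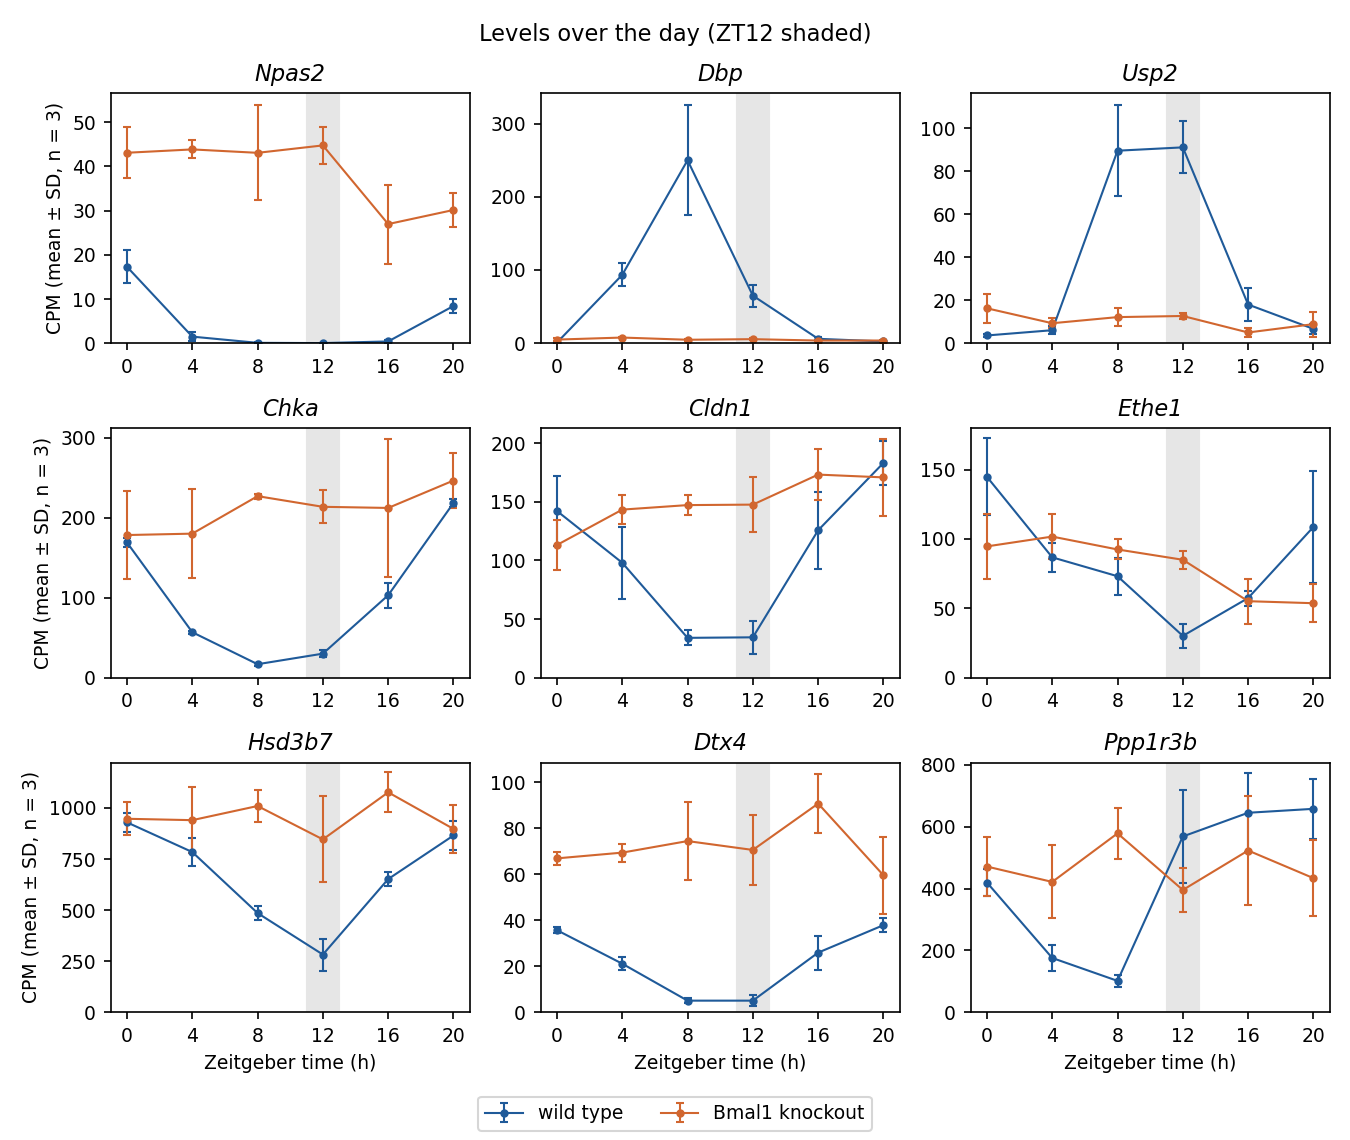
CPM over the 6 Zeitgeber times in wild type and knockout, points at the mean and bars at ± SD of 3 mice, with ZT12 shaded. Chka, Cldn1 and Hsd3b7 dip at ZT8 to ZT12 in wild type alone, Dbp and Usp2 peak there, and the Ppp1r3b lines cross between ZT8 and ZT12.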

How the data were processed

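Liver mRNA was sequenced from 6 mice at ZT12, among 36 in the series, with a stranded mRNA kit per the labels' protocols. The authors deposited raw counts, whole-number sense-strand reads per gene; CASAVA, STAR 2.4.0f1 and the mm9 build are named per the submitters' processing notes. The counting program, its annotation and the reason for the near-equal totals are not given in the sources used here. If reads were down-sampled to a common depth, low genes lose precision.

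From these counts edgeR 4.0.16 in R 4.3.3 kept 13201 genes (filterByExpr on 12 groups, minimum count 10, minimum total count 15), scaled libraries by TMM, and fitted 1 mean per genotype and time with labelled sex as a covariate. Quasi-likelihood F tests compared knockout with wild type at ZT12, and this difference with that at other times. Benjamini-Hochberg values over all 13201 genes were called under 0.05. SE was the size of the log2 difference over the square root of F. CPM values use TMM-scaled totals, compare a gene only between samples, and carry SD over 3 separate mice. Counting intervals cover counting error only. Alternatives were DESeq2 1.42.0, other size factors and filters, covariates, subsets of libraries and each ZT12 mouse left out; libraries labelled male alone, 2 alternatives for the comparison of times, and limma 3.58.1 (voom) with and without the cage as a random block were added after the data were seen. The fit was also run on counts simulated with no differences between times or sexes, apart from changes set in the knockout at ZT12. That run cannot show how the late libraries, body weight or the library with a mismatched sex label affect the real fit.

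Genes named are the core clock, the 15 highest and 15 lowest called differences with a mean of at least 1 log2 CPM, up to 5 per list by smallest p, and the 12 (other 5 times) or 5 (single times) smallest p for departures; predicted genes were left out. The gene lists and the comparison were chosen with earlier results of these data known. Some named genes are not reported here.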

Additional observations from a re-analysis of the deposited data

Results flagged for a closer look

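Results here were singled out because a test found that the knockout minus wild-type difference at ZT12 was not the same as at other times of day. Only at ZT12 did the body weights of the genotypes not overlap, so time of day and weight cannot be told apart here. Such differences were called for 66 genes against the mean of the other 5 times, 178 against ZT0, 1 against ZT8 and 23 against ZT16. Values are the ZT12 difference minus the difference at the other times, in log2 units, with adjusted p values from edgeR.

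Against the mean of the other 5 times, the difference at ZT12 was more positive for Npas2 (5.69), Gas7 (2.49), Dtx4 (2.02), Arntl (1.96), Ethe1 (1.74) and Cldn1 (1.57). The same held for Clpx, a mitochondrial chaperone of heme and protein quality control (1.55), and Adck3, a kinase-like protein of coenzyme Q synthesis (1.54). Chka (1.52) and Hsd3b7 (1.17) were also more positive. The difference was more negative for Usp2 (-2.53) and Dbp (-2.18). Adjusted p for these 12 genes lay between 0.000649 and 0.00139.

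Against ZT0, the difference was more positive for Npas2 (8.99) and Arntl (3.47) and more negative for Dbp (-6.14), Per3 (-4.62) and Tef (-2.69). For Dbp, Per3 and Tef the fitted knockout minus wild-type difference was positive at ZT0 and negative at ZT12. Against ZT8, Ppp1r3b differed by -3.06. Dbp (2.17, adjusted p = 0.0598) and Arntl (-1.70, adjusted p = 0.342) did not pass against ZT8. Their fitted knockout minus wild-type differences were larger in size at ZT8 than at ZT12, so neither is particular to ZT12. Against ZT16 the values were 2.90 for Arntl, 1.81 for Trim2, a ubiquitin ligase, 1.38 for Gldc, the glycine decarboxylase, -2.82 for Dbp and -3.29 for Erbb4, a neuregulin receptor. At ZT12 Erbb4 was 3.81 ± 1.12 CPM in the knockout and 6.68 ± 0.86 CPM in wild type, which did not pass on its own (SD, n = 3; adjusted p = 0.130). The comparison with ZT16 rests on libraries that lie apart from those of ZT0 to ZT12 in both genotypes.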

How the results depend on the processing

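No paired analysis was run, and the replicate numbers, given in accession order, pair no mice across genotypes. Of 20 cages 5 held both genotypes; limma-voom called 772 genes higher and 743 lower with the cage as a random block (consensus correlation -0.09) and 803 and 791 without it, a setting chosen after the data were seen. Counts of genes called higher and lower were 796 and 778. With the ZT12 libraries alone 518 were called higher. With libraries labelled male alone the counts were 62 and 21, where each group held 1 mouse assumed to vary like the other groups. Without ZT16 and ZT20 they were 1480 and 1407, and with a minimum absolute log2 fold change of 1 they were 122 and 96. Leaving out each ZT12 mouse gave 476 to 732 higher and 456 to 767 lower; without wild-type replicate 3 of ZT16 the counts were 861 and 861, and that against ZT0 was 177 and that against ZT16 24.

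Of departures from the mean of the other 5 times (66), 124 were called with body weight as a covariate, 12 in libraries labelled female alone, 0 in those labelled male, 205 without ZT16 and ZT20, 1 with the minimum fold change and 165 by DESeq2; leaving out a mouse gave 27 to 76. Against ZT0 (178) the counts were 17 with the female and 1 with the male label, 561 without ZT16 and ZT20, 24 with the minimum fold change, 296 by DESeq2, and 112 to 162 with a mouse left out. Against ZT8 (1) they were 4 without a filter on low counts, 8 with body weight, 2 with the female label, 0 with the male label, 4 without ZT16 and ZT20, 13 by DESeq2, 2 by limma-voom with or without the cage, and 1 to 4 with a mouse left out. Against ZT16 (23) they were 15 without the sex term, 59 with the female label, 0 with the male label, 1 with the minimum fold change, 98 by DESeq2, and 11 to 23 with a mouse left out. The only wild-type ZT16 library labelled female is replicate 3, whose Xist and Ddx3y reads go against that label, so the female count against ZT16 has that library as its wild type there, and the one against the other 5 times rests on it in part. The cause of these shifts was not tested.

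Among the named genes, 4 changed sign in libraries labelled male alone, with no call: C1qc (0.10), Nfil3 (-0.16), Pnpla3 (0.87) and Ppp1r3b (0.18). Body weight as a covariate ended 14 calls (adjusted p = 0.0518 to 0.914), those of Alas1, Colec11, Ctsl, Cyp3a41a, Elovl6, Fabp1, Irs2, Itih3, Mup15, Nr4a1, Selenbp2, Serpina1e, Thrsp and Wee1. Without the sex term 11 ended (0.0532 to 0.365), those of Alas1, C1qc, Cd163, Cd68, Colec11, Cyp2a4, Cyp3a41a, Hao2, Selenbp2, Serpina1e and Sult2a2. With the ZT12 libraries alone 11 ended (0.0577 to 0.165), with the female label alone 10, with the male label alone 68 of 106, with the minimum fold change 44, and by limma-voom with or without the cage 8. DESeq2 size factors and age as a covariate ended no call among the 109 genes. Bhlhe40 gained a call under 7 settings (adjusted p = 0.00379 to 0.048): both uses of DESeq2, the ZT12 libraries alone, body weight, the female label alone, a mean of at least 1 CPM and no filter; Hlf gained one with body weight and Ppp1r3b with the female label alone. Without ZT16 and ZT20, Bhlhe40, Erbb4 and Hlf were called; so were Bhlhe40 and Ppp1r3b without wild-type mouse 1 of ZT12, and Hlf without knockout mouse 1. Depth limits Npas2, Bhlhe41 and other genes near 0 reads in 1 genotype.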

Other observations

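Some gene groups not described above held single genes with clear differences at ZT12. Ppard, which encodes the fatty acid receptor PPARdelta, was 40.3, 58.8 and 65.4 CPM in the knockout and 8.80, 8.29 and 9.07 CPM in wild type (2.64 ± 0.47 log2 units, adjusted p = 0.000312). It was the 1 higher gene of 16 in the list of KLF and circadian-linked factors, with 2 lower (18.8% called, against 11.9% over all tested genes). Klf10, a glucose-responsive Krüppel-like factor, was 6.93, 3.85 and 3.52 CPM against 11.5, 41.4 and 32.2 CPM (adjusted p = 0.00187). Foxa3, a forkhead factor of hepatocytes, was 14.5, 22.4 and 28.1 CPM against 73.4, 60.7 and 58.9 CPM (-1.58 ± 0.35 log2 units, adjusted p = 0.00301). It was the 1 gene called among 18 hepatocyte transcription factors (5.56%, against 11.9% over all tested genes), with a list median of -0.39. At an unadjusted p under 0.05 by edgeR, 6 of the 18 were lower and 0 higher. Without the ZT16 and ZT20 libraries 5 were called lower and 1 higher. Atf3, a stress-induced factor, was low in all mice, at 0.564 ± 0.343 against 2.85 ± 1.39 CPM (SD, n = 3; adjusted p = 0.00253). Ctsl, the lysosomal protease cathepsin L, rose from 521 ± 105 to 954 ± 118 CPM (SD, n = 3; adjusted p = 0.00235). The calls of these 5 genes held with each ZT12 mouse left out; with body weight as a further covariate that of Ctsl ended (0.55 log2 units, adjusted p = 0.118).

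Knockout mouse 1, the lightest at 13.7 g, stood apart from the other knockout mice for Nr4a1, an orphan nuclear receptor and immediate early gene, at 21.9 CPM against 1.73 and 1.84 CPM, with wild-type mice at 0.988 to 1.24 CPM. Without it the call of Nr4a1 ended, as it did without wild-type mouse 2 or wild-type mouse 3 (adjusted p = 0.0149 with all mice, 0.0649 to 0.616 without), and with body weight as a further covariate its difference was 0.57 log2 units (adjusted p = 0.753). The same mouse was the highest knockout mouse for Irs2 and for Per1.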
